A study of Mus musculus with 64 samples.

Results

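The genes described here are the collagens of an Affymetrix mouse array series, taken as every gene whose symbol has the form of a collagen chain (Col, a type number, a, a chain number). There were 42 such genes among 18194 genes with a probe set of their own, covered by 82 probe sets, and each gene was represented by its brightest probe set. RNA was measured in hippocampus and prefrontal cortex of 4-month-old mice of the F1 cross of C57Bl/6 and SJL. Tg2576 mice, which overexpress a mutant human amyloid precursor protein, and their non-transgenic littermates were given PF-04447943 or vehicle by infusion under the skin for 28 days. PF-04447943 inhibits PDE9A, a phosphodiesterase that breaks down cyclic GMP. The 8 groups (region by genotype by treatment) held 8 arrays each, 64 in all. A prion protein promoter drives the transgene, so it is expressed widely in the brain, and the drug reached the whole animal. Each array holds all cell types of a dissected region. In such bulk RNA, fewer cells of a type and less RNA per cell cannot be told apart.

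Collagens are proteins of the extracellular matrix in which 3 chains wind into a triple helix. The fibrillar types (I, II, III, V, XI and others) build fibrils. Type IV forms the network of basement membranes, in the brain mainly around blood vessels. FACIT collagens sit on fibrils, type VI makes beaded filaments around cells, multiplexins (XV, XVIII) carry heparan or chondroitin sulphate in basement membranes, and a few types span the cell membrane. Brain parenchyma holds little fibrillar collagen. The meninges, the choroid plexus and the vessel wall hold much of what is found there.

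Intensity is given as log2 of the deposited RMA value, so a difference of 1 is a doubling. Levels of different probe sets are not compared with each other. A gene was tested if its mean lay above the 40th percentile of the probe sets, which was log2 5.94 for hippocampal arrays, 5.91 for prefrontal arrays and 5.93 for all arrays. By this limit the hippocampal test held 29 members, the prefrontal test 28 and the regional comparison 27. Col2a1 and Col5a3 were tested in hippocampus only and Col9a2 in prefrontal cortex only. The 12 members tested in neither region were Col4a3, Col4a4, Col4a5, Col6a4, Col6a5, Col8a2, Col10a1, Col13a1, Col14a1, Col17a1, Col24a1 and Col26a1. Differences came from limma, p-values were adjusted by Benjamini-Hochberg across every gene in the test, and a gene passed at an adjusted p under 0.05.

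Arrays of 1 region correlated at 0.974 or higher over all probe sets. One library stood apart and went against its label. The library labelled hippocampus, Tg2576, PF-04447943, replicate 1 had a mean of 6.90 over 9 hippocampal marker genes. The other 31 hippocampal libraries lay between 8.87 and 9.79 on this list and the prefrontal libraries between 6.12 and 6.67. The same library was the highest of the hippocampal ones on the cortical layer list (9.40) and the striatal list (9.26). It was also the lowest of them on the endothelial list (8.21) and the oligodendrocyte list (10.69). On both it lay below every prefrontal library (8.47 to 9.05 and 10.97 to 11.91). On the choroid plexus, meningeal and mural lists it lay inside the prefrontal range. Marker levels also varied elsewhere. The striatal list ran from 8.06 to 11.5 over the 32 prefrontal arrays. The choroid plexus list, 12 genes led by transthyretin, lay between 5.71 and 6.62 in 25 hippocampal arrays and between 7.63 and 9.89 in the other 7. Of those 7 arrays, 4 were in the vehicle-treated wild-type group and 1 in each other group. In prefrontal cortex 8 of the 12 choroid plexus markers were below the intensity limit and the list stayed between 5.09 and 5.95.

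The first comparison asked which collagens differ between the regions. Averaged over the 4 groups of mice, 17 of 27 tested members differed, 13 higher and 4 lower in hippocampus. Of all 12955 genes tested, 33% were higher and 39% were lower, so the higher members made up a larger share than among all genes and the lower members a smaller one. The median member difference was 0.15, against -0.02 over all genes tested. The leading members on the hippocampal side were both type XI chains, Col5a2 of type V, Col9a3 of type IX and the vascular type IV chains. On the cortical side they were chains of type VI and type XIX. In vehicle-treated wild-type mice alone, 12 of 27 passed, 9 higher and 3 lower, where 21.1% of all genes were higher and 23.8% lower. Without the library that went against its label, 19 members passed in the average and 12 in vehicle-treated wild-type mice. In the average Col5a1 was added as lower in hippocampus and Col25a1 as higher, and none was lost. No member was higher in every hippocampal array than in every prefrontal array, as 1.17% of all genes were, and none was lower in this way, as 0.718% were.

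**Figure D1:**
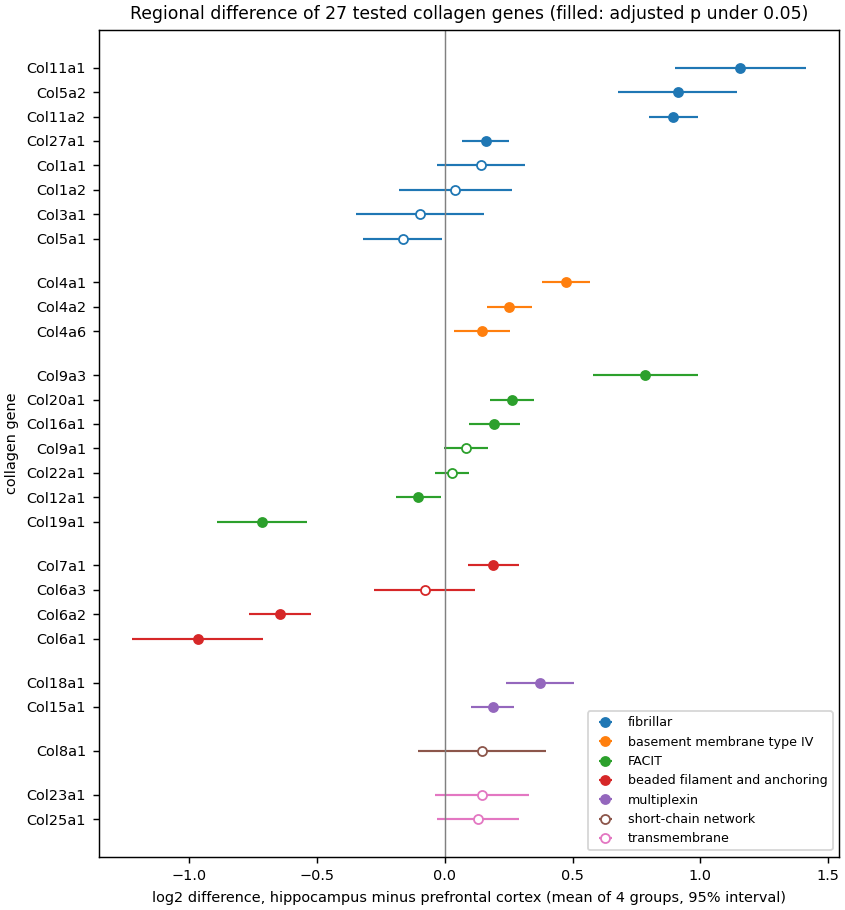
Log2 difference between hippocampus and prefrontal cortex for the 27 collagen genes tested over both regions, averaged over the 4 groups of mice, with 95% intervals and grouped by collagen class. Filled points are the 17 genes past an adjusted p of 0.05: Col11a1 lies farthest to the right (1.16) and Col6a1 farthest to the left (-0.97).

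The regional difference was largest for Col11a1, a chain of type XI collagen, which helps to set the diameter of fibrils. Of the fibrillar class 8 members were tested, of which 4 were higher in hippocampus and none lower. In vehicle-treated wild-type mice its lowest, median and highest values were 7.26, 7.76 and 8.28 in hippocampus and 5.33, 6.62 and 7.43 in prefrontal cortex. The ranges overlapped, through 1 prefrontal array at 7.43. The averaged difference was 1.16 (SE 0.13, 2.23-fold, adjusted p = 4.94e-12). It was positive in each of the 4 groups of mice, between 0.79 in vehicle-treated Tg2576 and 1.47 in PF-04447943-treated wild-type mice. The second probe set of Col11a1 gave 1.28. Without the library that went against its label, in which Col11a1 stood at 5.99, the difference was 1.21.

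Col11a2, the partner chain in type XI collagen, ran from 7.54 through a median of 7.65 to 7.83 in vehicle-treated wild-type hippocampus. In prefrontal cortex of that group it ran from 6.49 through 6.71 to 7.06, and the groups did not overlap. How many of all genes separate 8 arrays from 8 in this way is not given. The averaged difference was 0.89 (SE 0.05, 1.86-fold, adjusted p = 5.69e-25). Col5a2, a type V chain that can join the type XI chains in mixed fibrils, ran from 6.77 through 6.95 to 7.25 in hippocampus and from 5.38 through 6.06 to 6.77 in prefrontal cortex. The groups met at 6.77. The averaged difference of Col5a2 was 0.91 (SE 0.12, 1.88-fold, adjusted p = 4.62e-10), and its second, dimmer probe set gave 0.80. Col5a1, the other type V chain tested, differed by -0.16 (95% interval -0.32 to -0.01) and missed the threshold (adjusted p = 0.0505). It passed with the replicate number as a block (adjusted p = 0.039), and its dimmest probe set gave -0.50 (adjusted p = 5.46e-06 over all probe sets). Col27a1, a fibrillar chain best known from cartilage, was 0.16 higher in hippocampus (SE 0.05, adjusted p = 0.0017), a call that ended with the levels of the choroid plexus and meningeal lists as covariates (0.11, adjusted p = 0.12).

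**Figure D2:**
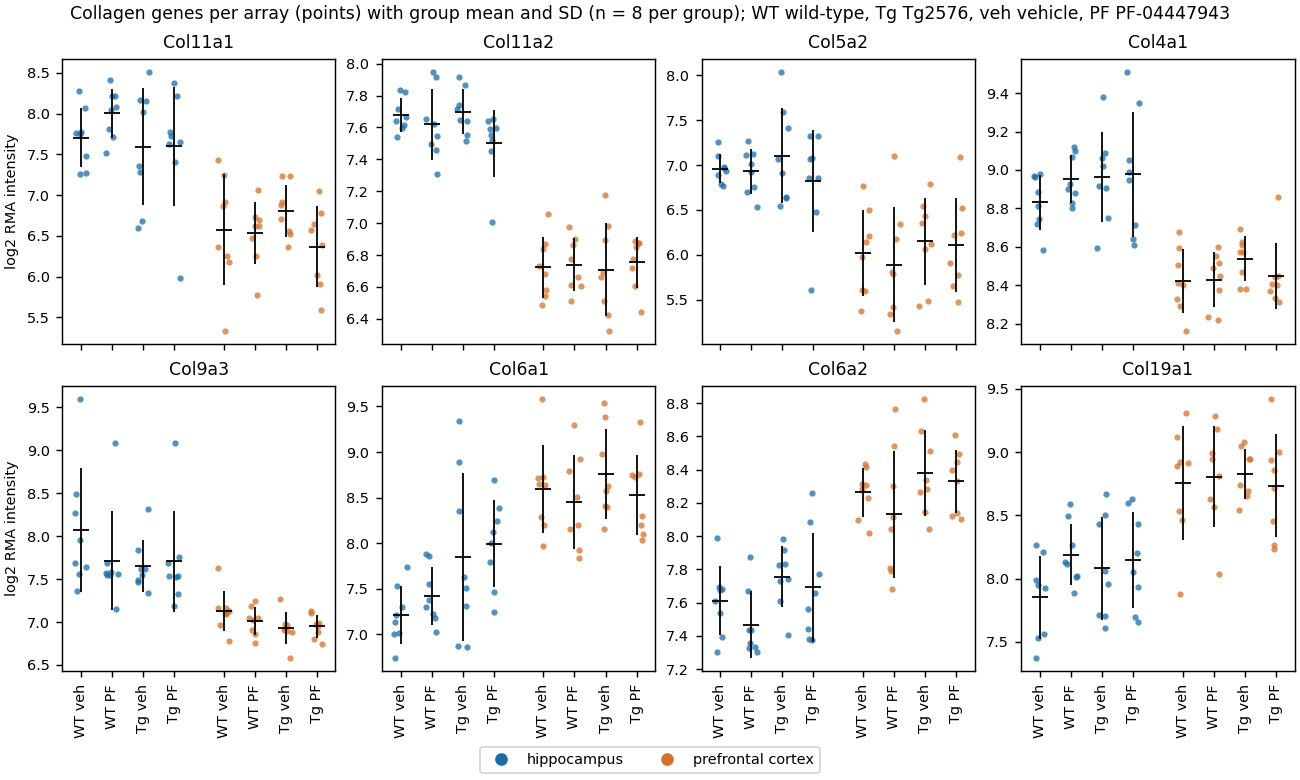
Log2 intensity of 8 collagen genes in each of the 64 arrays (points), with the mean and SD of each group of 8 arrays, hippocampus on the left and prefrontal cortex on the right of each panel. Col11a1, Col11a2, Col5a2, Col4a1 and Col9a3 were higher in hippocampus, and Col6a1, Col6a2 and Col19a1 lower. Single high arrays stand out for Col9a3 and a single low one, at 5.99, for Col11a1.

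The chains of the major interstitial collagens showed no regional difference that passed by their brightest probe sets. Col1a1 and Col1a2, the 2 chains of type I, differed by 0.14 (95% interval -0.03 to 0.31) and 0.04 (-0.18 to 0.26). A second probe set of Col1a1, dimmer than the limit, gave 0.17 (adjusted p = 0.000723 over all probe sets). Col3a1, the chain of type III that accompanies type I in soft tissues and vessel walls, differed by -0.10 (-0.35 to 0.15). Their arrays spread widely. Col3a1 ran from 5.29 through 6.05 to 7.21 in vehicle-treated wild-type prefrontal cortex and from 5.60 through 6.07 to 7.12 in hippocampus. Col1a2 ran from 7.54 through 8.07 to 8.98 in hippocampus and from 7.46 through 7.81 to 8.77 in prefrontal cortex.

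In the type IV class, 3 members were tested and all 3 were higher in hippocampus. Col4a1 and Col4a2, the chains of the common basement membrane network of vessels, lie head to head in the genome and their 300-base promoter windows share 78 bases, chr8:11312777-11312854 of GRCm38.p6. The 30 bases shown are the part of that shared stretch with its GC box (GGGCGG, in capitals), printed because both genes start from it in opposite directions. The sequence is from RefSeq and is on the plus strand, chr8:11312800-11312829.
Col4a1 and Col4a2 shared promoter: tcggcagtgcgcGGGCGGcgtctccaaggg

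Col4a1 ran from 8.58 through 8.85 to 8.98 in vehicle-treated wild-type hippocampus and from 8.16 through 8.41 to 8.68 in prefrontal cortex, with overlapping ranges. Its averaged difference was 0.47 (SE 0.05, 1.39-fold, adjusted p = 1.28e-13), and each of the 4 groups of mice gave between 0.41 and 0.53. Col4a2 ran from 8.02 through 8.29 to 8.57 in hippocampus and from 7.95 through 8.04 to 8.29 in prefrontal cortex. Its averaged difference was 0.25 (SE 0.04, 1.19-fold, adjusted p = 7.99e-07). In vehicle-treated wild-type mice alone the Col4a2 difference was 0.21 (adjusted p = 0.044) and that call ended when 1 of 10 libraries was left out: replicate 1, 3, 5, 6 or 7 of that group in hippocampus or replicate 1, 2, 3, 4 or 5 in prefrontal cortex, where the adjusted p reached 0.11 at most. It also ended for Col4a2 with no intensity limit (adjusted p = 0.053) and with the arrays centred on the median (adjusted p = 0.067). Among all genes 33% were higher in hippocampus and 39% lower. Of 11 tested endothelial genes 1 was higher and 9 were lower, with a list level of 8.21 to 8.74 in hippocampus and 8.47 to 9.05 in prefrontal cortex. Of 10 tested mural (pericyte and smooth muscle) genes 3 were higher and 5 lower. The part of these cells in the difference was not tested. Col4a6, a chain of the rarer type IV network, was 0.15 higher (SE 0.06, adjusted p = 0.015), a call that ended with the signal range of the arrays as a covariate (0.07, adjusted p = 0.17) and with the choroid plexus and meningeal lists as covariates (0.11, adjusted p = 0.14). In vehicle-treated wild-type mice its difference was 0.30 (adjusted p = 0.024), and with these lists as covariates 0.22 (adjusted p = 0.12). The call in that group also ended without replicate 1 or 2 in hippocampus, or without replicate 1 or 4 in prefrontal cortex. The second probe set of Col4a6, dimmer than the limit, gave 0.03 in the average (adjusted p = 0.55 over all probe sets).

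Of the FACIT class 7 members were tested, of which 3 were higher and 2 lower in hippocampus. Col9a3, a type IX chain that in cartilage sits on type II fibrils, ran from 7.36 through 7.82 to 9.60 in vehicle-treated wild-type hippocampus and from 6.78 through 7.12 to 7.62 in prefrontal cortex. The averaged difference was 0.78 (SE 0.10, 1.72-fold, adjusted p = 9.30e-10). With the levels of the choroid plexus and meningeal lists as covariates it was 0.13 (adjusted p = 0.026), and in vehicle-treated wild-type mice 0.05 in place of 0.94 (adjusted p = 0.69 in place of 0.000136). In the 25 hippocampal arrays with a low choroid plexus list level, Col9a3 ran from 7.15 through 7.55 to 7.84. Within these arrays its relation with that list passed by r (0.47) and not by rho (0.25). Whether a straight-line covariate describes Col9a3 was not tested. The part of these cells in the difference of Col9a3 was not tested. Col20a1 was 0.26 higher (SE 0.04, adjusted p = 3.51e-07) and Col16a1 0.19 higher (SE 0.05, adjusted p = 0.000489). The sister chain Col9a1 differed by 0.08 (95% interval -0.00 to 0.17), with 0.12 from a probe set dimmer than the limit (adjusted p = 0.020 over all probe sets), and Col22a1, a FACIT of tissue junctions, by 0.03 (-0.04 to 0.09). The other probe sets of Col22a1, both dimmer than the limit, gave 0.34 and 0.25 (adjusted p = 3.67e-06 and 6.59e-06 over all probe sets), so for Col22a1 too the result depended on the probe set.

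Col19a1 was the FACIT member that was lower in hippocampus by a wide margin. It encodes a collagen that interneurons make and that has a role in forming inhibitory synapses. It ran from 7.37 through 7.94 to 8.27 in vehicle-treated wild-type hippocampus and from 7.88 through 8.90 to 9.31 in prefrontal cortex, where 1 array reached down into the hippocampal range. The averaged difference was -0.71 (SE 0.09, 1.64-fold lower, adjusted p = 1.49e-10). Its next brightest probe set gave -0.70 and the dimmest -0.14. Col12a1, which binds type I fibrils, was 0.10 lower by its brightest probe set (-0.10, SE 0.04, adjusted p = 0.030). That call ended without the hippocampal library of Tg2576, vehicle, replicate 2, and also with quantile normalization, array weights or the marker lists as covariates. Its dimmer probe sets gave -0.71, -0.31 and 0.12, so the size for Col12a1 depended on the probe set.

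Type VI collagen went, in Col6a1 and Col6a2, the other way from Col11a1, Col11a2 and Col5a2. Of the class of beaded filament and anchoring collagens 4 members were tested, of which 2 were lower and 1 higher in hippocampus. Col6a1 and Col6a2 encode 2 of the chains of its basic unit and are neighbours on chromosome 10. The 250 bases before the start of each, on the minus strand of GRCm38.p6, are shown because both genes were lower in hippocampus and moved together within each region. The capitals mark a GC box read on the opposite strand (CCGCCC). The window of Col6a1 is chr10:76726045-76726294 and that of Col6a2 chr10:76623631-76623880, both from RefSeq.
Col6a1: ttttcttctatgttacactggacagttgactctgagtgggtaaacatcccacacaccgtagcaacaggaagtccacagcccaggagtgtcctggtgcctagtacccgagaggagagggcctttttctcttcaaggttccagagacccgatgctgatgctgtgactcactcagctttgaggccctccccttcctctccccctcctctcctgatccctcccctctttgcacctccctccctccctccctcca
Col6a2: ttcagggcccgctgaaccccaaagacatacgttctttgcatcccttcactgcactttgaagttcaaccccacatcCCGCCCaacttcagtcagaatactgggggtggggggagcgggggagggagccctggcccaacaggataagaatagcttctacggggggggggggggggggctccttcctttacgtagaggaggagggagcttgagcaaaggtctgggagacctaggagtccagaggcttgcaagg

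Promoter windows were searched on both strands for the GC box (letters GGGCGG). They were also searched for the CCAAT box, by those letters. Another search looked for the TATA box, with the letters TATAAA. The stretch shown for Col6a1 held none of these, and that for Col6a2 held 1 GC box and neither of the others. RefSeq gives Col6a2 another start as well, whose window, chr10:76623355-76623654, held 3 GC boxes. Over the promoter table, 33 of the 42 members had a window of 300 bases (250 before and 50 after the start), 36 windows in all. A GC box was found in 22 of these 36 windows, against 35.7% of the 32851 windows of all genes. The CCAAT box was in 13 of the 36 (37.4% of all windows) and the TATA box in 5 (13.6%). A match here is a run of letters, not a bound site.

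Col6a1 ran from 6.74 through 7.18 to 7.74 in vehicle-treated wild-type hippocampus and from 7.97 through 8.65 to 9.58 in prefrontal cortex. The groups did not overlap, and the share of all genes that separate 8 arrays from 8 in this way is not given. The averaged difference was -0.97 (SE 0.13, 1.95-fold lower, adjusted p = 1.26e-09). It was -1.39 in vehicle-treated wild-type mice and -0.53 in Tg2576 mice on PF-04447943, where it did not pass (adjusted p = 0.087). Col6a2 ran from 7.30 through 7.64 to 7.99 in hippocampus and from 8.02 through 8.30 to 8.43 in prefrontal cortex, again without overlap. Its averaged difference was -0.64 (SE 0.06, 1.56-fold lower, adjusted p = 2.37e-14), and all 4 groups of mice gave between -0.66 and -0.63. The second probe set of Col6a2, also above the limit, gave -0.25 (adjusted p = 3.73e-05 over all probe sets). The size for Col6a2 thus depended on the probe set. Col6a3, the longest chain of the classical type VI unit, differed by -0.08 (95% interval -0.28 to 0.12). Col7a1, the chain of the anchoring fibrils of skin, was 0.19 higher in hippocampus (SE 0.05, adjusted p = 0.000703).

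Both multiplexins were higher in hippocampus. Col18a1, the source of endostatin, ran from 6.63 through 7.02 to 7.78 in vehicle-treated wild-type hippocampus and from 6.34 through 6.64 to 6.83 in prefrontal cortex. The ranges overlapped, and the averaged difference was 0.37 (SE 0.07, 1.30-fold, adjusted p = 1.92e-06). With the choroid plexus and meningeal lists as covariates it was 0.10 and did not pass (adjusted p = 0.20). In the 25 hippocampal arrays with a low choroid plexus list level, Col18a1 did not rise with that list (r = -0.25, rho = -0.30). A straight-line covariate may therefore not describe Col18a1, and the part of choroid plexus cells in its difference was not tested. Col15a1 was 0.19 higher (SE 0.04, adjusted p = 7.96e-05). Of the transmembrane class 2 members were tested and 0 passed with limma by the brightest probe set. Col25a1, whose shed product is found in amyloid plaques, differed by 0.13 (95% interval -0.03 to 0.29), and Col23a1 by 0.14 (-0.04 to 0.33). The second probe set of Col25a1, also above the limit, gave 0.20 (adjusted p = 0.000702 over all probe sets). Col25a1 passed with the mean of its probe sets, with quantile normalization and with the signal range as a covariate (0.21, adjusted p = 0.016), as it did without the library that went against its label. Col23a1 passed with the choroid plexus and meningeal lists as covariates (0.28, adjusted p = 0.012). Col8a1, a short-chain network collagen of vessels and of the membrane beneath the corneal endothelium, differed by 0.15 (-0.11 to 0.40). For Col8a1 the covariates turned the sign, to -0.64 (adjusted p = 8.80e-11). In the 25 hippocampal arrays with a low choroid plexus list level, Col8a1 did not follow that list (r = -0.01, rho = 0.05). A straight-line covariate may therefore not describe this gene. The next probe set of Col8a1, also above the limit, gave -0.10 without covariates (adjusted p = 0.66 over all probe sets).

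How the members varied from array to array within a region was compared with the marker lists, after the mean of each group was subtracted from both. The correlations were over 32 arrays, with a permutation test of 100000 resamples within groups, adjusted over the 203 relations in hippocampus and the 196 in prefrontal cortex. The hippocampal, cortical layer and striatal lists were a later addition, made with the data in view. Only collagen genes were set against the lists, so no share of all genes stands beside these relations. An unadjusted p of 1e-05 is the smallest these permutations can give, and it corresponds to an adjusted p of 0.000226 in hippocampus and 0.00014 in prefrontal cortex.

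The interstitial collagens followed the meningeal fibroblast list, 15 genes such as Dcn, Lum and Igf2, in both regions. In hippocampus the list correlated with Col1a2 at r = 0.94 (rho = 0.91, adjusted p = 0.000226 and 0.000508), with Col1a1 at r = 0.84 (rho = 0.77) and with Col3a1 at r = 0.78 (rho = 0.65). In prefrontal cortex the values were r = 0.91 (rho = 0.91, adjusted p = 0.00014 and 0.000178) for Col1a2, r = 0.73 (rho = 0.72) for Col1a1 and r = 0.80 (rho = 0.80) for Col3a1. Col5a2 joined them in prefrontal cortex at r = 0.86 (rho = 0.84). Without the 2 arrays farthest from the median of the list the values of Col1a2 were 0.90 and 0.91, and that of Col5a2 was 0.85. Every r and rho named so far passed, with adjusted p-values of 0.00152 or less. Without the library that went against its label the hippocampal values of Col1a2, Col1a1 and Col3a1 were 0.94, 0.84 and 0.81. Over those 31 arrays, r with the endothelial list was 0.62, 0.58 and 0.65, and with the mural list 0.53, 0.52 and 0.52. With the hippocampal list it was -0.64, -0.65 and -0.53. In hippocampus these genes thus did not follow the meningeal list alone. Past the threshold, 3 of 29 members rose in hippocampus with the endothelial list and 0 with the mural list. In prefrontal cortex 2 of 28 rose and 7 fell with the endothelial list. The meningeal list itself ran from 6.81 to 8.20 in hippocampus and from 6.34 to 8.04 in prefrontal cortex.

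In hippocampus the choroid plexus arrays formed 2 separate clusters, so the relation was taken within each, without subtraction of group means and with adjustment over 8 relations. Over the 7 arrays with a high list level, Col9a3 ran from 7.95 through 8.49 to 9.60 and rose with the list at r = 0.99 (rho = 1.0, exact permutation p = 0.000397, the smallest possible with these 7, adjusted 0.00159). Col8a1 ran from 6.63 through 6.92 to 8.24 in them, with r = 0.97 (rho = 0.89, exact permutation p = 0.00437 and 0.0123, adjusted 0.0116 and 0.0328). Col8a2, the partner chain of Col8a1, which fell below the intensity limit on average, reached 8.08 in these arrays, with r = 0.996 (rho = 1.0, exact permutation p = 0.000397). For Col18a1 the value was r = 0.69 (rho = 0.75, exact permutation p = 0.11 and 0.066). Over the other 25 arrays Col9a3 stayed between 7.15 and 7.84, Col8a1 between 5.33 and 6.14 and Col8a2 between 4.01 and 5.06. In those 25 arrays the relation passed for Col9a3 by r (0.47, permutation p = 0.016, adjusted 0.032) and not by rho (0.25, permutation p = 0.22), and for no other of these 4 genes. Without the 2 arrays farthest from the median, Col9a3, Col8a1 and Col8a2 gave 0.99, 0.91 and 0.99 in the 7 arrays, and Col9a3 gave 0.33 in the 25. Col9a3, Col8a1 and Col8a2 were thus high where transthyretin and the other choroid plexus markers were high.

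**Figure D3:**
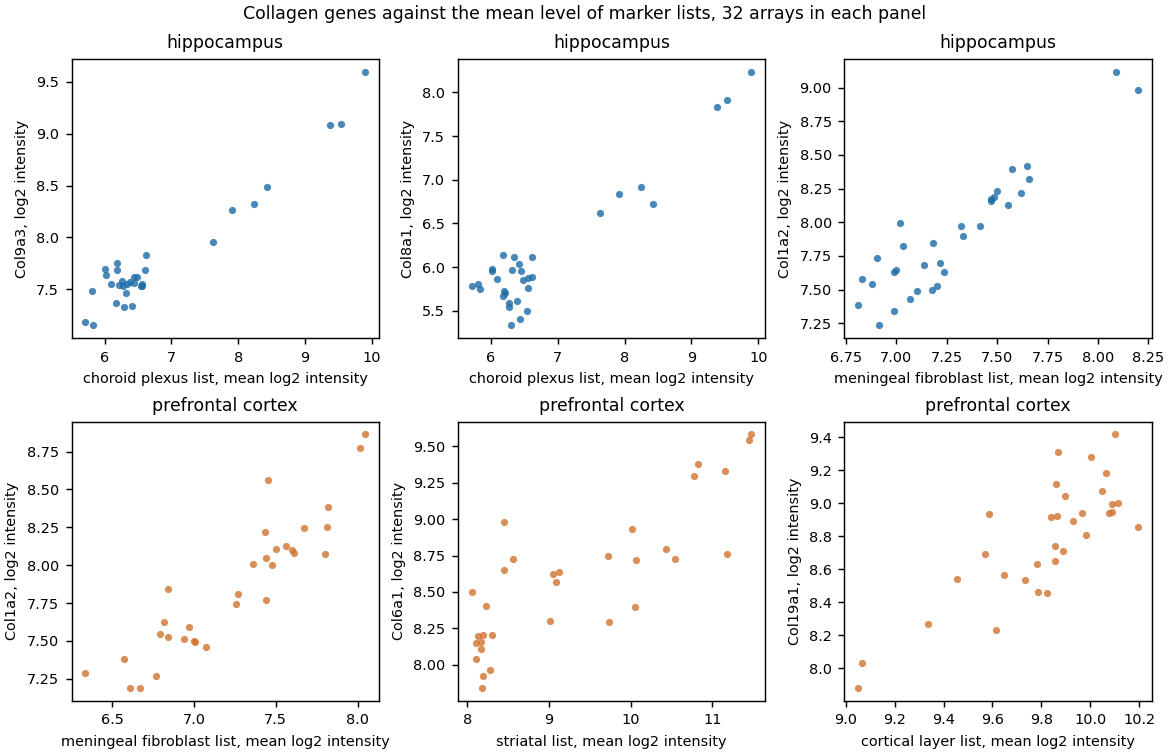
Log2 intensity of a collagen gene (vertical axes) against the mean log2 intensity of a marker list (horizontal axes), 32 arrays in each panel. Col9a3 and Col8a1 are high in the 7 hippocampal arrays with a choroid plexus list level of 7.63 or more. Col1a2 follows the meningeal list in both regions, and in prefrontal cortex Col6a1 follows the striatal list and Col19a1 the cortical layer list.

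Other members followed the lists of regional markers. In prefrontal cortex 12 of 28 tested members rose and 1 fell with the striatal list past the threshold. With the cortical layer list 1 rose and 11 fell. In hippocampus 0 of 29 rose and 5 fell with the hippocampal list. How many of all genes follow these lists was not tested. In prefrontal cortex, Col6a1 correlated with the striatal list at r = 0.84 (rho = 0.79, adjusted p = 0.00014 and 0.000178) and with the cortical layer list at r = -0.83 (rho = -0.78, adjusted p = 0.00014 and 0.000178). Col6a2 went with the striatal list at r = 0.72 (rho = 0.75). Col5a2 correlated with the striatal list at r = 0.79 (rho = 0.75) and with the cortical layer list at r = -0.83 (rho = -0.83). Col19a1 did the opposite, with r = 0.82 (rho = 0.75) for the cortical layer list and r = -0.76 (rho = -0.70) for the striatal list. In hippocampus Col5a1 correlated with the hippocampal list at r = -0.87 (rho = -0.77) and Col6a2 at r = -0.80 (rho = -0.83). Without the library that went against its label, these were -0.72 and -0.83 over 31 arrays. Col23a1 moved from -0.59 (rho = -0.80) to -0.86 in the same step. All these relations passed, with adjusted p-values of 0.000812 or less. Without the 2 arrays farthest from the median, Col6a1 gave 0.78 and -0.77, Col19a1 gave 0.69 and -0.71, and Col5a1 gave -0.71. In the regional comparison, all 5 tested striatal markers and 5 of 7 cortical layer markers were lower in hippocampus, where 39% of all genes were. The part of these markers in the differences of Col6a1, Col6a2 and Col19a1 was not tested.

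Chains, mostly of 1 collagen type, were also set against each other, 14 pairs in each region, in a family of 28. The pairs were chosen after the data had been seen. Col5a2 was also paired with Col3a1 and Col11a1, chains of other types. Col5a2 and Col11a1 correlated in hippocampus (r = 0.72, rho = 0.55, adjusted p = 0.0012 and 0.0122). In prefrontal cortex that pair did not pass (r = 0.23, rho = 0.18, adjusted p = 0.31 and 0.45). Without the library that went against its label its hippocampal r was 0.58. Col4a1 and Col4a2, with their shared promoter, correlated at r = 0.89 in hippocampus (rho = 0.90, adjusted p = 4.67e-05) and at r = 0.74 in prefrontal cortex (rho = 0.64, adjusted p = 0.000187 and 0.0006). Col1a1 and Col1a2, which lie on different chromosomes, correlated at r = 0.90 (rho = 0.87) and r = 0.75 (rho = 0.73), each with an adjusted p of 4.67e-05. Col6a1 and Col6a2 correlated at r = 0.61 (rho = 0.63, adjusted p = 0.000187 and 0.000716) and r = 0.78 (rho = 0.87, adjusted p = 4.67e-05). Col6a3 did not follow Col6a1 in hippocampus (r = 0.10, rho = 0.18, adjusted p = 0.65 and 0.45). The neighbours Col3a1 and Col5a2 correlated in prefrontal cortex (r = 0.77, rho = 0.78, adjusted p = 4.67e-05) and not beyond the threshold in hippocampus (r = 0.25, rho = 0.18, adjusted p = 0.31 and 0.45), and this contrast between regions was not tested. Col9a1 and Col9a2 ran against each other in prefrontal cortex (r = -0.65, rho = -0.60, adjusted p = 0.0012 and 0.00322). Without the 2 farthest arrays the pair Col4a1 and Col4a2 gave 0.86 and 0.55, Col1a1 and Col1a2 gave 0.83 and 0.69, and Col6a1 and Col6a2 gave 0.68 and 0.82.

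**Figure D4:**
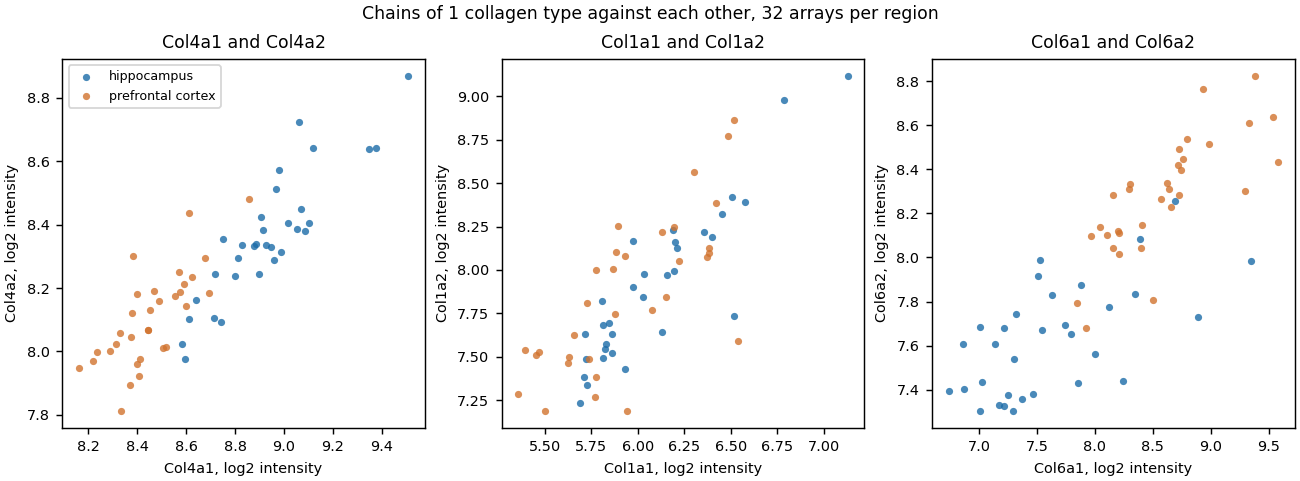
Log2 intensity of 2 chains of a collagen type against each other in each array, 32 arrays per region. Col4a1 with Col4a2, Col1a1 with Col1a2 and Col6a1 with Col6a2 rise together in both regions. The hippocampal arrays of Col6a1 and Col6a2 lie mostly below the prefrontal ones, while those of Col1a1 and Col1a2 lie among them.

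Of the 15 members left out of the test over both regions by the intensity limit, 10 passed when no limit was set, 7 higher and 3 lower in hippocampus. Of all 5239 genes left out in this way, 29.8% were higher and 10.5% lower, and of all 18194 genes 31.8% and 30.6%. The 10 members are Col2a1, Col5a3, Col4a3, Col4a4, Col4a5, Col8a2 and Col10a1, higher in hippocampus, and Col9a2, Col24a1 and Col26a1, lower. Col6a4, Col6a5, Col13a1, Col14a1 and Col17a1 did not pass. The widest was Col24a1, a fibrillar chain, at 3.06 through 3.43 to 3.84 in hippocampus and 3.44 through 4.03 to 5.32 in prefrontal cortex (difference -0.68, adjusted p = 6.15e-12). These intensities are near the lower end of the array, and the part of background signal in the sizes was not tested.

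The other genes of the pathway were taken from 5 lists of collagen-related genes. Beside the counts that follow, 33% of all 12955 genes were higher in hippocampus and 39% lower. Of 17 tested genes of collagen folding, modification and secretion, 11 were higher in hippocampus and none lower. Examples are the lysyl hydroxylases Plod2 (0.58, SE 0.07, adjusted p = 2.33e-10) and Plod1 (0.47, SE 0.05), the prolyl isomerase Fkbp14 (0.55, SE 0.05) and P3h3 (0.52, SE 0.05), a member of the prolyl 3-hydroxylase family. The collagen chaperone Serpinh1 differed by 0.08 (adjusted p = 0.24). Of 6 genes of procollagen cleavage and cross-linking, 4 were higher and none lower, among them the lysyl oxidase family member Loxl1 (0.62, SE 0.09) and the procollagen protease Bmp1 (0.41, SE 0.06). Of 7 tested matrix proteases and inhibitors 5 were higher and none lower, led by the membrane protease Mmp14 (0.46, SE 0.05) and the gelatinase Mmp2 (0.37, SE 0.06).

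Of 6 tested collagen receptors, 3 were higher (Adgrg1, a receptor for type III collagen, at 0.51) and 1 lower (the integrin subunit Itgb1 at -0.21). Of 11 basement membrane partners 8 were higher and 1 lower in hippocampus, with the laminin chain Lamb1 at 1.10 (SE 0.09), the collagen-binding Sparc at 0.81 (SE 0.06) and the laminin chain Lama4 at -0.28 (SE 0.07). Meningeal fibroblast markers gave 4 higher and 5 lower of 14 tested, and oligodendrocyte markers 5 higher of 5. Among all genes 33% were higher and 39% lower, and the meningeal counts lay near these shares. The part of these cells in the pathway genes was not tested.

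The second comparison asked what the transgene does to collagen RNA. No member passed in either region. In hippocampus 0 of 29 tested members passed with limma, where 0.0925% of all genes did, and 2 had an unadjusted p under 0.05. In prefrontal cortex 0 of 28 passed, where 0.0464% of all genes did, and 1 had an unadjusted p under 0.05. Within vehicle alone 0 members passed in hippocampus, where 0.00771% of all genes did, and 0 in prefrontal cortex, where 0% did, with 1 and 2 unadjusted p-values under 0.05. Within PF-04447943 alone 0 passed in either region, as did 0% of all genes, with 2 and 0 unadjusted p-values under 0.05.

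Col6a1 had the smallest p in hippocampus. It ran from 6.74 through 7.18 to 7.74 in wild-type mice on vehicle and from 6.86 through 7.57 to 9.35 in Tg2576 mice on vehicle. On PF-04447943 it ran from 7.03 through 7.33 to 7.88 in wild-type and from 7.25 through 8.06 to 8.69 in Tg2576 mice. The groups overlapped. Tg2576 arrays differed from wild-type arrays by 0.60 on average (95% interval 0.22 to 0.99, adjusted p = 0.34), and by 0.55 (adjusted p = 0.43) without the library that went against its label. The same difference was tested against that in prefrontal cortex and the contrast of 0.49 did not pass (adjusted p = 0.68). In vehicle-treated Tg2576 mice 3 arrays stood at 8.35, 8.89 and 9.35 and the other 5 at 7.63 or lower. Col6a2 differed by 0.18 (0.02 to 0.35, adjusted p = 0.54). The hippocampal marker list had a median transgene difference of -0.28 over its 9 tested genes, of which 1 lay above 0 and 0 passed. Col6a1 and Col6a2 correlated with that list over the hippocampal arrays, at r = -0.51 (rho = -0.63, adjusted permutation p = 0.000923 and 0.00345) and r = -0.80 (rho = -0.83). The r values were -0.57 and -0.83 without the library that went against its label. The part of these markers in the differences was not tested.

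The next smallest p-values in hippocampus belonged to Col11a1 (-0.26, 95% interval -0.64 to 0.13), Col22a1 (0.05, -0.04 to 0.15) and Col27a1 (0.08, -0.06 to 0.22). The vascular chains Col4a1 and Col4a2 differed by 0.08 (-0.08 to 0.23) and 0.05 (-0.09 to 0.20). Col25a1, the plaque collagen, differed by -0.02 (-0.27 to 0.23), Col18a1 by 0.02 (-0.21 to 0.24) and Col1a1, Col1a2 and Col3a1 by 0.01, -0.08 and -0.03. The choroid plexus list had a median transgene difference of -0.39 over its 8 tested genes, with 0 past the threshold, beside a Col9a3 difference of -0.21 (-0.60 to 0.17). Of the meningeal list 1 gene of 14 passed, Ogn, at -0.85 (adjusted p = 0.023).

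In prefrontal cortex the smallest p-values belonged to Col9a3 (-0.13, 95% interval -0.26 to -0.00, adjusted p = 0.40), Col6a2 (0.16, -0.02 to 0.34), Col20a1 (-0.11, -0.25 to 0.02), Col1a1 (0.20, -0.04 to 0.44) and Col9a2 (0.15, -0.03 to 0.33). Col25a1 differed by 0.14 (-0.06 to 0.34) and Col4a1, Col4a2, Col18a1, Col1a2 and Col3a1 by 0.07, 0.06, 0.08, 0.03 and 0.19. None passed. The 5 striatal markers had a median transgene difference of 0.36 there, with 0 past the threshold, and their part was not tested.

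**Figure D5:**
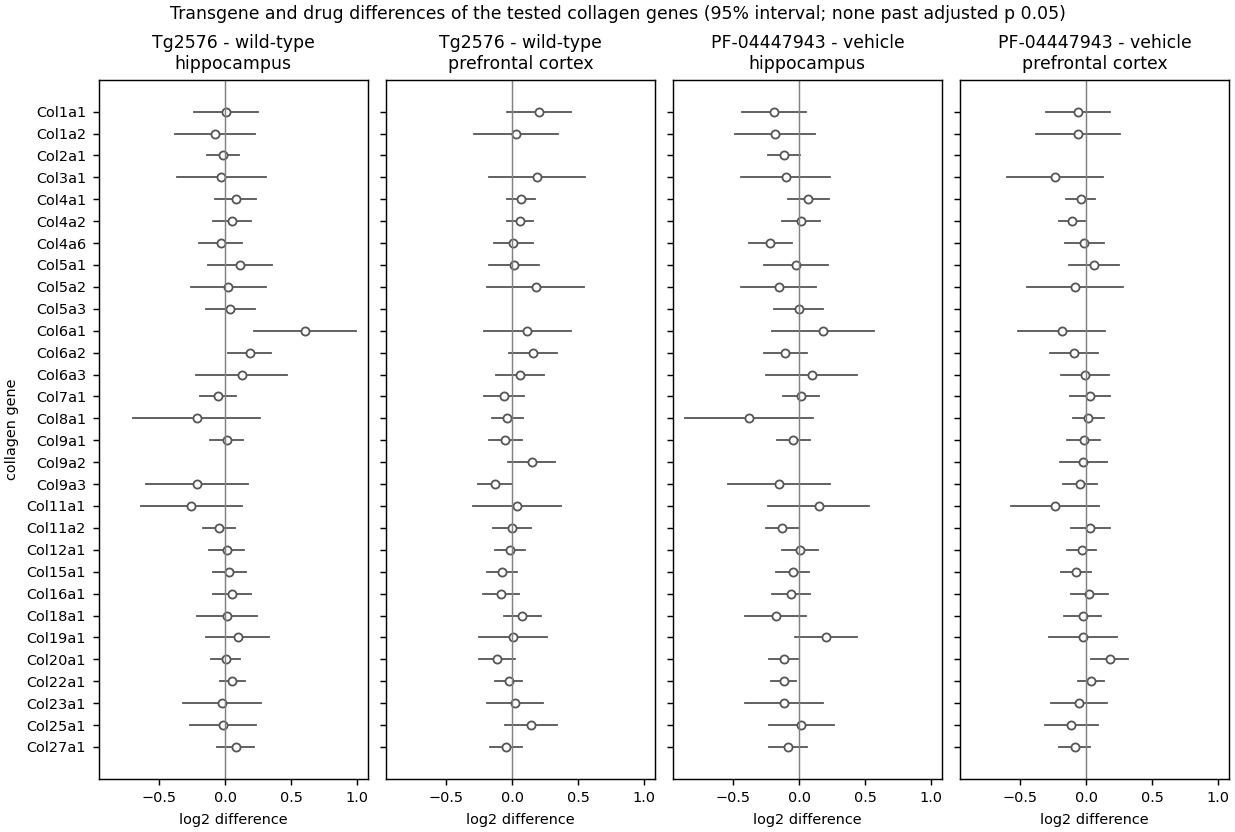
Log2 differences of the 30 members tested in at least 1 region, for Tg2576 against wild-type and for PF-04447943 against vehicle in each region, with 95% intervals. No member passed an adjusted p of 0.05 in any of the 4 panels. Col6a1 in hippocampus lies farthest from 0 in the first panel, at 0.60.

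The third comparison asked what 28 days of PF-04447943 do. In hippocampus 0 of 29 tested members passed with limma, where 2.34% of all genes did, and 4 had an unadjusted p under 0.05. In prefrontal cortex 0 of 28 passed, where 0.00773% of all genes did, and 2 had an unadjusted p under 0.05. In prefrontal cortex 21 of 28 members were lower on the drug, with a median difference of -0.04 against -0.002 over all genes tested. Within genotypes 13 of 28 were lower there in Tg2576 mice and 21 of 28 in wild-type mice. In hippocampus 20 of 29 members were lower on the drug, with a median difference of -0.09 against 0.03 over all genes tested. The share of all genes that were lower is not given for either region. In hippocampus of Tg2576 mice 15 of 29 were lower and in that of wild-type mice 22 of 29. With limma 0 members passed in either, where 0% and 0.0386% of all genes did, and 1 and 5 had an unadjusted p under 0.05. The hippocampal wild-type vehicle group holds 4 of the 7 arrays with high choroid plexus markers, whose part in these counts was not tested. The drug by genotype interaction passed for 0 members in each region, as for 0% of all genes, with 1 unadjusted p under 0.05 in each.

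The members with the smallest p in hippocampus had negative differences. These were -0.22 for Col4a6 (95% interval -0.38 to -0.06, adjusted p = 0.12), -0.12 for Col22a1 (-0.21 to -0.02), -0.12 for Col20a1 (-0.23 to -0.01), -0.13 for Col11a2 (-0.25 to -0.01) and -0.12 for Col2a1 (-0.24 to 0.01). Without the library that went against its label Col4a6 gave -0.21 (adjusted p = 0.12). The signal range of the hippocampal arrays, the interquartile range of log2 values, was 3.52 on vehicle and 3.65 on the drug in wild-type mice, and 3.52 and 3.60 in Tg2576 mice. The choroid plexus list had a median drug difference of -0.31 over 8 tested genes, with 0 past the threshold. With the signal range as a covariate Col4a6 gave -0.03 and Col2a1 -0.01. The range itself differed between drug and vehicle, so this covariate cannot tell a drug effect from an effect of the range. The vascular and plaque-related chains gave 0.07 for Col4a1 (-0.09 to 0.22), 0.01 for Col4a2 (-0.13 to 0.16), -0.18 for Col18a1 (-0.41 to 0.05) and 0.02 for Col25a1 (-0.23 to 0.26). Col1a1, Col1a2 and Col3a1 gave -0.19, -0.19 and -0.10. Of the 5 pathway lists 1 gene passed in hippocampus, the membrane-type protease Mmp16, at 0.16 (adjusted p = 0.039), and none in the other transgene or drug comparisons of a region averaged over the other factor.

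In prefrontal cortex the smallest p-values belonged to Col20a1 (0.18, 95% interval 0.04 to 0.31, adjusted p = 0.9997), Col4a2 (-0.11, -0.21 to -0.01), Col27a1 (-0.09, -0.21 to 0.03), Col11a1 (-0.24, -0.57 to 0.10) and Col15a1 (-0.08, -0.19 to 0.04). The difference of drug effects between regions passed for 0 of 27 members, where 0.00772% of all genes did, and 2 had an unadjusted p under 0.05. The difference of transgene effects between regions passed for 0 of 27, where 0% of all genes did, with 0 at an unadjusted p under 0.05. Col1a1, Col1a2, Col3a1, Col4a1, Col18a1 and Col25a1 gave drug differences of -0.06, -0.06, -0.23, -0.04, -0.03 and -0.11.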

How the data were processed

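Total RNA of microdissected hippocampus and prefrontal cortex was hybridised to Affymetrix mouse expression arrays. The deposited intensities are RMA values on a linear scale, per the submitters' processing notes; the program and its version are not stated there. Whether the 64 arrays or each region were processed together is not stated there, which bears on values set across regions. Log2 was taken. Of 45101 probe sets, 34945 had 1 gene in the platform annotation, 932 several and 9160 none, with 64 controls. Each gene kept its brightest probe set, and genes below the 40th percentile were not tested. limma 3.58.1 (R 4.3.3; lmFit, eBayes, two-sided) fitted the 4 groups of a region, or all 8 groups for regional differences, with no block. Permutations used scipy 1.17.1 and figures matplotlib 3.10.9. The fit was tested on simulated data. The members, gene lists and tests were chosen with earlier results of these data known. All members are accounted for. Named with values were the 8 widest on each side for the regional difference, the 5 smallest p-values elsewhere, Col1a1, Col1a2, Col3a1, Col4a1, Col4a2, Col18a1 and Col25a1 throughout, and up to 4 called genes of each list. Alternatives were another intensity limit, probe set rule, scaling, prior, weights, covariates, blocks and each array left out. No label states that the 8 arrays of a group are separate mice, so p-values measure the spread between these arrays. With 8 arrays in a group, their number limits the precision.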

Additional observations from a re-analysis of the deposited data

Results flagged for a closer look

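Within single groups of 8 arrays, 23 of 228 combinations of member and group had 1 array far from the others by Dixon's ratio at its 95% critical value, where chance gives about 1 in 20. In the library labelled hippocampus, Tg2576, PF-04447943, replicate 1, Col11a1 (5.99) and Col11a2 (7.01) were the lowest of their group and Col5a1 (8.83) and Col5a3 (6.79) the highest. This is the library with few hippocampal markers.

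Col9a3 and Col8a1 stood high in the arrays with high choroid plexus markers. In the hippocampal Tg2576 PF-04447943 replicate 4 they were at 9.09 and 7.91. In the hippocampal wild-type PF-04447943 replicate 5 they were at 9.08 and 7.83, with Col18a1 at 7.49 and Col15a1 at 6.52. Col8a1 was at 8.23 in the hippocampal wild-type vehicle replicate 5 and at 6.92 in the hippocampal Tg2576 vehicle replicate 5.

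The other arrays far from their group were these. Col1a1 (7.13) and Col3a1 (7.81) were highest in the hippocampal Tg2576 PF-04447943 replicate 8. Col5a1 was highest (7.96) in the hippocampal Tg2576 vehicle replicate 3 and Col6a3 (7.18) in the hippocampal wild-type vehicle replicate 1. In prefrontal cortex, Col6a1 (9.58) and Col9a3 (7.62) were highest in the wild-type vehicle replicate 5, and Col4a1 (8.86) in the Tg2576 PF-04447943 replicate 2. Col16a1 was highest (8.27) and Col25a1 lowest (8.07) in the wild-type PF-04447943 replicate 8. Col25a1 was also lowest (8.05) in the wild-type vehicle replicate 3, and Col18a1 (6.20) in the Tg2576 PF-04447943 replicate 6.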

How the results depend on the processing

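The intensity limit moved the regional counts most. With the 60th percentile as the limit, 10 members passed in the average of the 4 groups in place of 17, and 6, 6 and 7 in vehicle-treated wild-type, vehicle-treated Tg2576 and PF-04447943-treated Tg2576 mice. Fewer genes are tested there: Col11a1, Col11a2 and Col5a2 are dropped by that limit. With no limit 27 passed in the average, and 2 in the hippocampal drug comparison, Col6a4 and Col17a1. With the limit 2.34% of all genes passed in that drug comparison, and the share without a limit is not given. With each array left out in turn the counts were 16 to 19 in the average and 10 to 13 in vehicle-treated wild-type mice. The mean of all probe sets of a gene gave 15 in the average: 5 were lost because their averaged signal lies below the limit (Col5a2, Col9a3, Col20a1, Col4a6 and Col12a1) and 3 were added (Col5a1, Col9a1 and Col25a1). None of these results changed sign as a called value. The counts of the transgene and drug comparisons stayed at 0 under all 44 settings of a region apart from that 1. Same-numbered arrays of the regions correlated in their deviations at -0.26 to 0.54, over 0.1 in 20 of 32 pairs. With the replicate number as a block 12 members passed in vehicle-treated wild-type mice and 18 in the average, Col5a1 being added, and 0 within each region. By probe sets with 2 levels, each hippocampal array matched 1 prefrontal array of its group, 26 of 32 with the same number. The other 6 were all in PF-04447943-treated Tg2576 mice, and in the other 3 groups all 24 had the same number, as a hint from the data. A block by these matches gave 12 and 18 as well. Signal near background limits the 12 untested members.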

Other observations

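Among the members below the intensity limit, Col6a4, a type VI chain, passed in hippocampus only when no limit was set. Its mean was 6.02 in wild-type and 6.07 in Tg2576 mice on vehicle, and 5.60 and 5.67 on PF-04447943, a difference of -0.41 (adjusted p = 0.00994). Col17a1, a transmembrane collagen of skin, differed by -0.17 (adjusted p = 0.0246). Both were picked after their values were seen. The share of all genes that passed without a limit is not given for this comparison, so these calls have no background beside them. Col17a1 had a mean of 3.79 over all arrays, near the lower end. The hippocampal signal range was wider on the drug (3.65 against 3.52 in wild-type and 3.60 against 3.52 in Tg2576 mice). Its part in these differences was not tested.

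The members include 7 pairs of direct neighbours in the genome: Col9a1 with Col19a1, Col3a1 with Col5a2, Col4a3 with Col4a4, Col6a1 with Col6a2, Col4a1 with Col4a2, Col6a4 with Col6a5 and Col4a5 with Col4a6. Col9a1 and Col19a1 differed between the regions by 0.08 and -0.71, and Col3a1 and Col5a2 by -0.10 and 0.91.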
